A study of Homo sapiens with 9 samples.

Results

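BCMA, TACI and 6 related genes of the tumour necrosis factor (TNF) receptor and ligand families were followed in MM1S, an established line of human multiple myeloma cells. The set held the 3 receptors for the cytokines BAFF and APRIL, namely TNFRSF17 (BCMA), TNFRSF13B (TACI) and TNFRSF13C (the BAFF receptor). It also held both ligands, TNFSF13B (BAFF) and TNFSF13 (APRIL), and the costimulatory genes CD40, CD27 and CD70. Members were taken by their symbols from the table of estimated counts per gene, where 8 of 58387 genes matched, and all 8 were among the 16600 genes tested.

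RNA-seq was done on 9 libraries of MM1S cells grown in ordinary medium. KD_Rescued (n = 2) was PHF19 knockdown cells that carried an shRNA-resistant PHF19. PHF19_KD (n = 3) was cells infected with lentivirus encoding an shRNA against PHF19, and shEV (n = 3) was cells infected with the empty vector. In 1 more library the title named a PHF19 knockdown while the shRNA label named the shRNA-resistant PHF19, so it entered no comparison and its values are given apart. PHF19 belongs to the accessory proteins of PRC2, the Polycomb complex that methylates histone H3. Whether replicates came from separate cultures is not labelled, and within each of the 3 groups the library names begin alike. The p-values therefore cover only the spread among the libraries at hand, and that spread may be technical. KD_Rescued was sequenced in a lane of its own, by the library names, and the effects of lane and rescue cannot be told apart.

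Column totals were 23644123 to 23751353 counts in KD_Rescued, 10609798 to 12024913 in PHF19_KD and 16974728 to 22739741 in shEV. Levels below are CPM after scaling with edgeR's TMM factors. PHF19 itself stood at 219.97 and 218 CPM in KD_Rescued, at 26.0, 27.5 and 27.3 CPM in PHF19_KD, and at 123, 124 and 103 CPM in shEV. Its count does not tell the cells' own transcript from the construct. The 3 groups did not overlap in PHF19, and the library with disagreeing labels, at 63.6 CPM, lay in none of their ranges. Plasma cell genes were abundant in every library, and the summed level of 8 markers (SDC1, CD38, IGJ, MZB1, SLAMF7, IRF4, PRDM1 and XBP1) was 9608 to 9647 CPM in KD_Rescued, 6895 to 7079 CPM in PHF19_KD and 10369 to 11439 CPM in shEV. Without IGJ, the joining chain gene, the other 7 markers summed to 3912 to 3999.8 CPM in KD_Rescued, 4156 to 4223 CPM in PHF19_KD and 4154 to 4213 CPM in shEV. Of 8 B cell stage markers, CD79B (26.8 to 58.3 CPM), CIITA (33.7 to 64.4 CPM) and CR2 (19.8 to 42.8 CPM) were expressed in all 9 libraries, MS4A1 and CD22 were at or near 0, and FCER2 was at 0. Of 8 myeloid markers, CD68 was at 8.92 to 30.9 CPM and ITGAM at 0.455 to 3.04 CPM, and FCGR3A and S100A8 were at 0 in all 9 libraries. The T cell gene CD3D and the NK cell gene NKG7 were also at 0 in all 9. In these bulk libraries, fewer cells of a type and less RNA per cell cannot be told apart.

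BCMA and TACI are receptors of late B-lineage cells that bind the trimeric cytokines APRIL and BAFF. They recruit TRAF adaptors and signal to NF-kB, and BCMA sustains long-lived plasma cells and is a target of antibodies and engineered T cells in myeloma. The BAFF receptor binds BAFF alone and is chiefly a receptor of resting B cells. CD40 receives help from T cells through CD40 ligand, and CD27 is a receptor of memory B cells and plasma cells whose ligand is CD70.

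Between PHF19_KD and shEV, 5 of the 8 genes passed the test. CD40, TNFSF13 and CD27 rose in PHF19_KD, while TNFRSF17 and TNFRSF13B fell. Calls were edgeR quasi-likelihood tests with Benjamini-Hochberg adjusted p below 0.05 over all genes tested. The share of the 8 genes called was 62.5%, against 69.1% of all genes tested, so the number of calls does not set these genes apart. Of all genes tested, 34.9% rose and 34.2% fell in the same comparison.

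Between KD_Rescued and PHF19_KD, 6 of the 8 genes passed the test, and 63.4% of all genes tested did. TNFRSF17, TNFRSF13B and TNFRSF13C rose in KD_Rescued, where 33.9% of all genes rose, and TNFSF13, CD40 and CD27 fell, where 29.5% of all genes fell. Between KD_Rescued and shEV, 3 of the 8 genes passed, against 39.8% of all genes tested. TNFRSF13C was higher in KD_Rescued (20.7% of all genes were), and TNFRSF17 and TNFRSF13B were lower (19.1% of all genes were). Each pair of these comparisons shares a group of libraries, so their fold changes are not independent of each other. TNFRSF13C reached the test through its KD_Rescued libraries and 1 shEV library. Its calls as higher in KD_Rescued are therefore description and no support.

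**Figure D1:**
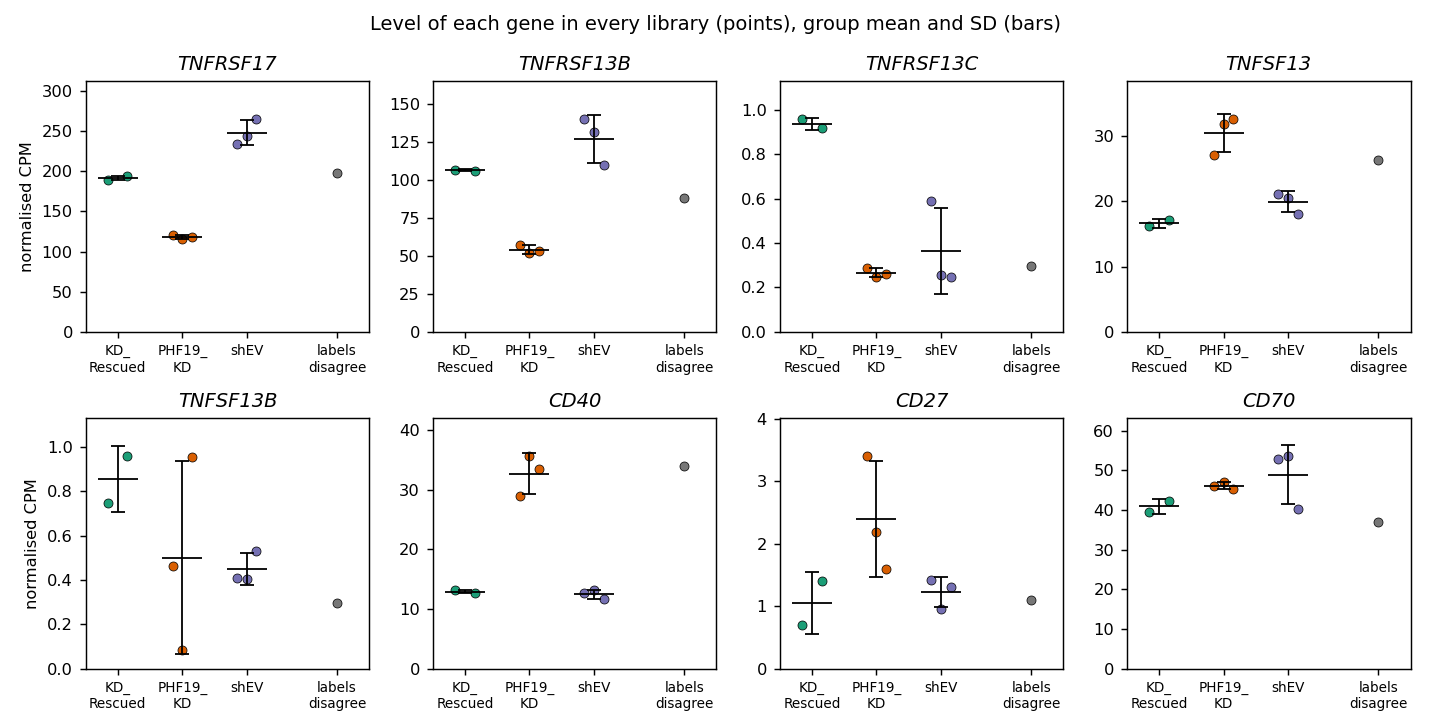
Normalised CPM (vertical axes, each from 0) of the 8 genes in every library (points), with the mean and SD of each group (bars), for KD_Rescued (n = 2), PHF19_KD (n = 3), shEV (n = 3) and the library whose labels disagree (n = 1). Of the 3 groups, PHF19_KD has the lowest TNFRSF17 and TNFRSF13B and the highest CD40 and TNFSF13, and the library whose labels disagree has a CD40 level within the PHF19_KD range.

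TNFRSF17 had 189.6 and 193 CPM in KD_Rescued, 121, 115 and 118 CPM in PHF19_KD libraries, and 234, 244 and 265 CPM in shEV. Every PHF19_KD library lay below every KD_Rescued library, and every KD_Rescued library below every shEV library. The mean in PHF19_KD was 118 ± 2.85 CPM, which is 47.6% of the shEV mean of 248 ± 15.4 CPM (SD, n = 3 each). On the log2 scale TNFRSF17 fell by 1.07 ± 0.05 (SE) in PHF19_KD relative to shEV (adjusted p = 2.89e-09). In KD_Rescued the mean was 192 ± 2.70 CPM (SD, n = 2), a log2 fold change of 0.70 ± 0.06 against PHF19_KD (adjusted p = 3.89e-07). That level remained 77.3% of the shEV mean, with a log2 fold change of -0.37 ± 0.06 (adjusted p = 0.00028). TNFRSF17 kept its calls against PHF19_KD and against shEV when any single library was left out. If the library whose labels disagree was put in PHF19_KD, both calls of KD_Rescued were lost (adjusted p = 0.0955 against PHF19_KD and 0.174 against shEV, the highest of 19 alternatives in each).

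TNFRSF13B, whose product like BCMA binds both ligands and also interacts with the calcium modulator CAMLG, showed the same order of groups. It had 107 and 106 CPM in KD_Rescued, 57.2, 52.0 and 53.3 CPM in PHF19_KD libraries, and 140.0, 132 and 109.6 CPM in shEV. The groups did not overlap, although the lowest shEV library, replicate 3, was close to KD_Rescued. Means were 106 ± 0.677 CPM in KD_Rescued, 54.2 ± 2.71 CPM in PHF19_KD and 127 ± 15.7 CPM in shEV (SD over 2, 3 and 3 libraries). TNFRSF13B fell by 1.23 ± 0.08 on the log2 scale (SE) in PHF19_KD relative to shEV (adjusted p = 2.12e-07), and rose by 0.97 ± 0.09 in KD_Rescued relative to PHF19_KD (adjusted p = 3.72e-06).

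The remaining gap of TNFRSF13B between KD_Rescued and shEV was a log2 fold change of -0.26 ± 0.09 (adjusted p = 0.0369), and it was less stable. It missed the threshold without PHF19_KD replicate 2 (adjusted p = 0.0508), shEV replicate 1 (0.104), shEV replicate 2 (0.0697), KD_Rescued replicate 1 (0.12) or KD_Rescued replicate 2 (0.136). Over all 19 alternatives the adjusted p ran from 5.61e-06 to 0.295. The estimated count of TNFRSF13B was not a whole number in 8 of 9 libraries (tolerance 0.01), as happens when reads shared with other genes are split, so its level is uncertain to that extent.

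TNFRSF17 and TNFRSF13B were also set against each other within each library. The ratio of TNFRSF13B to TNFRSF17 counts was 0.564 and 0.548 in KD_Rescued, 0.474, 0.452 and 0.451 in PHF19_KD, and 0.598, 0.538 and 0.414 in shEV. The shEV libraries spanned the other groups, so this ratio did not separate shEV from either of them, while KD_Rescued lay above PHF19_KD without overlap. The ratio of CD40 to TNFRSF17 counts was 0.0691 and 0.0658 in KD_Rescued, 0.240, 0.310 and 0.282 in PHF19_KD, and 0.0541, 0.0536 and 0.0439 in shEV. No library of PHF19_KD overlapped those of the other groups in that ratio. This follows from CD40 lying above and TNFRSF17 below both other groups in PHF19_KD, so it adds no support. Each ratio is between 2 genes of different length and carries meaning only across libraries.

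TNFRSF13C, the BAFF receptor, was barely detected. It had 0.957 and 0.918 CPM in KD_Rescued, 0.289, 0.248 and 0.260 CPM in PHF19_KD libraries, and 0.588, 0.258 and 0.246 CPM in shEV. The summed counts were 45 in KD_Rescued, 9 in PHF19_KD and 22 in shEV. It was thus higher in both KD_Rescued libraries than in any other library, and it passed the filter on low counts through those libraries and 1 shEV library. The filter therefore favoured a higher level in KD_Rescued, and the calls of TNFRSF13C are description only. The log2 fold change was 1.81 ± 0.49 (SE) in KD_Rescued relative to PHF19_KD (adjusted p = 0.00682) and 1.33 ± 0.42 relative to shEV (adjusted p = 0.0259). PHF19_KD and shEV overlapped, with a log2 fold change of -0.48 ± 0.53 in PHF19_KD (adjusted p = 0.436) that ranged from -0.69 to 0.10 when single libraries were left out. DESeq2 called neither difference of KD_Rescued (adjusted p = 0.065 against PHF19_KD and 0.194 against shEV). The difference from shEV also missed the threshold without shEV replicate 2 (adjusted p = 0.0791), shEV replicate 3 (0.062), KD_Rescued replicate 1 (0.126) or KD_Rescued replicate 2 (0.114), while over its alternatives the adjusted p ran from 0.00708 to 0.194. With a replicate block, which treats equally numbered libraries as pairs, it was 0.0599.

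TNFSF13, which encodes APRIL, moved opposite to TNFRSF17 and TNFRSF13B, whose products bind APRIL, in both comparisons with PHF19_KD. It had 16.2 and 17.2 CPM in KD_Rescued, 27.1, 31.8 and 32.6 CPM in PHF19_KD libraries, and 21.2, 20.5 and 18.1 CPM in shEV. PHF19_KD lay above both other groups without overlap, and KD_Rescued lay below shEV without overlap. TNFSF13 rose by 0.61 ± 0.09 on the log2 scale (SE) in PHF19_KD relative to shEV (adjusted p = 5.44e-05), and fell by 0.88 ± 0.10 in KD_Rescued relative to PHF19_KD (adjusted p = 8.28e-06). Both calls held under all 19 alternatives. Between KD_Rescued and shEV the log2 fold change was -0.26 ± 0.10 and missed the threshold (adjusted p = 0.0503). It passed under 8 of 19 alternatives, among them without PHF19_KD replicate 1 (adjusted p = 0.0372) and without shEV replicate 3 (0.00615), with a range of 0.00428 to 0.884.

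The neighbouring family member TNFSF12 (TWEAK) was at 0 in all 9 libraries. The readthrough transcript TNFSF12-TNFSF13 held an estimated 3.33 counts in PHF19_KD replicate 1 and none elsewhere, and so held few counts beside TNFSF13.

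TNFSF13B, which encodes BAFF, was near the limit of detection. It had 0.749 and 0.960 CPM in KD_Rescued, 0.465, 0.0827 and 0.954 CPM in PHF19_KD libraries, and 0.407, 0.405 and 0.531 CPM in shEV. The PHF19_KD libraries spanned both other groups. It passed the filter on low counts through both KD_Rescued libraries and 1 PHF19_KD library. Summed counts were 41 in KD_Rescued, 17 in PHF19_KD and 26 in shEV. None of its differences was called. The log2 fold change was 0.16 ± 0.58 (SE) in PHF19_KD relative to shEV, with a 95% interval from -1.12 to 1.43 (adjusted p = 0.822). It was 0.77 ± 0.57 in KD_Rescued relative to PHF19_KD (adjusted p = 0.257) and 0.93 ± 0.53 relative to shEV (adjusted p = 0.187). Without PHF19_KD replicate 3 the difference of KD_Rescued from PHF19_KD was 1.66 and was called (adjusted p = 0.0386, with a range of 0.0386 to 0.655 over its alternatives), and leaving out single libraries moved the difference of PHF19_KD from shEV between -0.73 and 0.68. Replicate 3 was the highest PHF19_KD library and the 1 that reached the filter. Its removal favoured that call, which is therefore description only.

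CD40, the receptor for CD40 ligand, was the member with the largest called rise in PHF19_KD. It had 13.1 and 12.7 CPM in KD_Rescued, 28.9, 35.7 and 33.4 CPM in PHF19_KD libraries, and 12.7, 13.1 and 11.6 CPM in shEV. The lowest PHF19_KD library was above every other library of the fit, while KD_Rescued and shEV overlapped. Means were 12.9 ± 0.264 CPM in KD_Rescued, 32.7 ± 3.42 CPM in PHF19_KD and 12.5 ± 0.759 CPM in shEV (SD over 2, 3 and 3 libraries). CD40 rose by 1.39 ± 0.09 on the log2 scale (SE) in PHF19_KD relative to shEV (adjusted p = 4.39e-08), and fell by 1.34 ± 0.10 in KD_Rescued relative to PHF19_KD (adjusted p = 1.96e-07). Between KD_Rescued and shEV the difference was 0.05 on the log2 scale, with a 95% interval from -0.17 to 0.27 (adjusted p = 0.735). The gene for its ligand, CD40LG, held 1 count in 1 KD_Rescued library and 0 in the others. The fall in KD_Rescued missed the threshold when the library with disagreeing labels was counted as KD_Rescued (log2 fold change -0.81, adjusted p = 0.0869, the highest of 19 alternatives).

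CD27 was present at a low level. It had 0.697 and 1.40 CPM in KD_Rescued, 3.41, 2.18 and 1.60 CPM in PHF19_KD libraries, and 1.42, 0.958 and 1.31 CPM in shEV. The lowest PHF19_KD library was just above the highest library of each other group, and KD_Rescued and shEV overlapped. CD27 rose by 0.95 ± 0.35 on the log2 scale (SE) in PHF19_KD relative to shEV (adjusted p = 0.0272), and fell by 1.15 ± 0.39 in KD_Rescued relative to PHF19_KD (adjusted p = 0.0203). Between KD_Rescued and shEV it was -0.20 ± 0.39 (adjusted p = 0.717).

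The calls of CD27 rested on few counts, with sums of 51 in KD_Rescued, 81 in PHF19_KD and 72 in shEV. The rise was lost without PHF19_KD replicate 1 (log2 fold change 0.61, adjusted p = 0.163) or shEV replicate 2 (0.81, adjusted p = 0.0756), with DESeq2 (adjusted p = 0.0561), and with the library whose labels disagree put in PHF19_KD (0.115), over a range of 0.0108 to 0.163. The fall was lost without PHF19_KD replicate 1 (log2 fold change -0.80, adjusted p = 0.1) or KD_Rescued replicate 1 (-0.73, adjusted p = 0.173), and with that library put in PHF19_KD (-1.01, adjusted p = 0.0803), over a range of 0.0034 to 0.173. CD27 also shares its locus with the antisense gene CD27-AS1, named here after its values were seen. CD27-AS1 had 13.6 and 12.8 CPM in KD_Rescued, 23.5, 20.6 and 25.1 CPM in PHF19_KD libraries, and 14.2, 12.5 and 14.1 CPM in shEV. PHF19_KD was above both other groups without overlap, as for CD27. The strand setting of the counting is not given in the sources used here, and CD27 counts were not whole in any of the 9 libraries. Whether CD27-AS1 was among the genes that shared reads with CD27 was not tested, so the level of CD27 is uncertain to that extent.

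CD70, the ligand of CD27, passed no test. It had 39.6 and 42.3 CPM in KD_Rescued, 46.1, 47.2 and 45.4 CPM in PHF19_KD libraries, and 52.8, 53.6 and 40.3 CPM in shEV. Both KD_Rescued libraries lay below the 3 PHF19_KD libraries, and shEV replicate 3 lay apart from the other shEV libraries and within the KD_Rescued range. The log2 fold change was -0.09 ± 0.10 (SE) in PHF19_KD relative to shEV (adjusted p = 0.451), with a 95% interval from -0.31 to 0.13. It was -0.17 ± 0.11 in KD_Rescued relative to PHF19_KD (adjusted p = 0.187) and -0.26 ± 0.11 in KD_Rescued relative to shEV (adjusted p = 0.0714). Without shEV replicate 3 all of these differences were called, at -0.21 between PHF19_KD and shEV (adjusted p = 0.00185), -0.17 between KD_Rescued and PHF19_KD (0.00721) and -0.38 between KD_Rescued and shEV (1.73e-05). With upper-quartile scaling the difference between PHF19_KD and shEV turned to 0.07, and CD70 was called lower in KD_Rescued than in PHF19_KD (-0.33, adjusted p = 0.0124). With RLE scaling it was called lower in KD_Rescued than in shEV (-0.31, adjusted p = 0.0235). With the replicate block CD70 was called lower in KD_Rescued than in PHF19_KD (adjusted p = 0.0219) and than in shEV (0.00692). Over all alternatives the adjusted p ran from 0.00185 to 0.9 between PHF19_KD and shEV, from 0.00206 to 0.487 between KD_Rescued and PHF19_KD, and from 1.73e-05 to 0.277 between KD_Rescued and shEV.

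**Figure D2:**
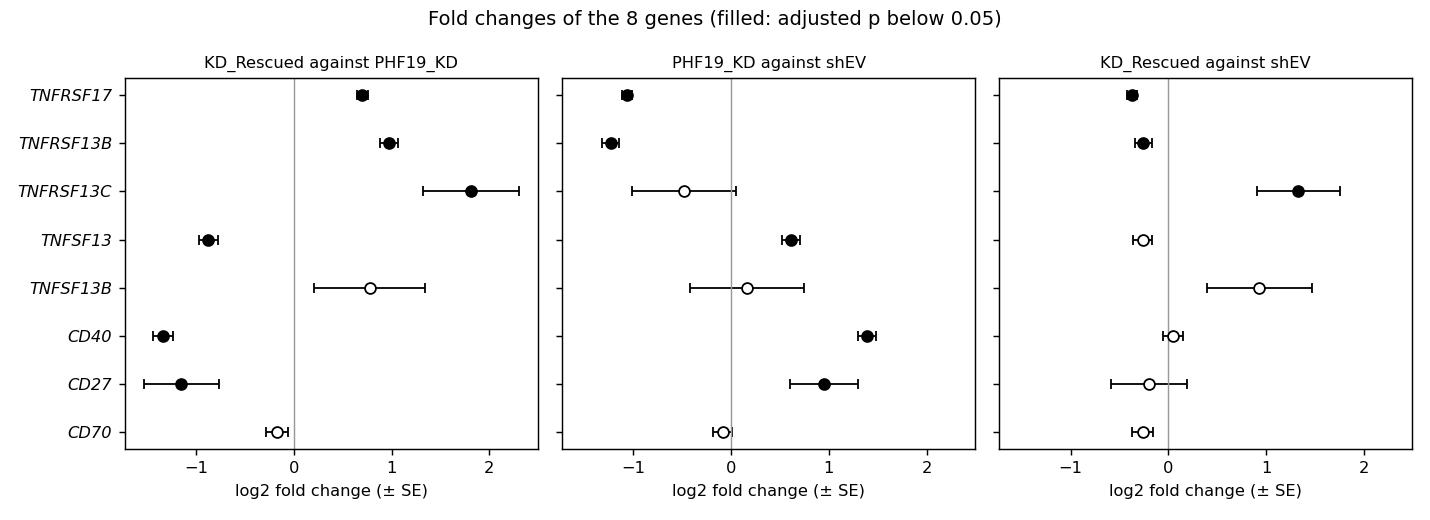
Log2 fold changes of the 8 genes (points, with SE as bars) in each of the 3 comparisons, filled where the adjusted p was below 0.05. TNFRSF17 and TNFRSF13B lie left of 0 and CD40, TNFSF13 and CD27 right of 0 in PHF19_KD against shEV, and each of these 5 genes lies on the other side in KD_Rescued against PHF19_KD. Both comparisons use the same PHF19_KD libraries, so a change of side is favoured by the design.

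Counted by overlap of libraries in place of a test, 5 of the 8 genes separated PHF19_KD from shEV, against 71.9% of all genes tested. Separation of KD_Rescued from PHF19_KD was seen for 7 of the 8 genes, against 77.2% of all genes, and separation of KD_Rescued from shEV for 5 of the 8, against 61.8% of all genes.

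Several sums also differed between the groups, not all in the same order. The share of counts from mitochondrially encoded genes was 5.08% ± 0.132 in KD_Rescued, 9.60% ± 0.518 in PHF19_KD and 3.16% ± 0.279 in shEV (SD over 2, 3 and 3 libraries). The fold changes of TNFRSF17, TNFRSF13B, TNFSF13, CD40 and CD27 between PHF19_KD and shEV kept direction and call when mitochondrially encoded genes were removed before scaling. The part of the following marker sums in the results was not tested. The 8 B cell stage markers summed to 118 to 122 CPM in KD_Rescued, 142 to 149.95 CPM in PHF19_KD and 93.8 to 104 CPM in shEV. CD79B and CR2 rose in PHF19_KD relative to shEV (0.85 ± 0.10 and 0.89 ± 0.08), while MS4A1, CD22 and FCER2 were at or near 0 in every group. The 8 myeloid markers summed to 9.75 to 10.5 CPM in KD_Rescued, 26.5 to 31.3 CPM in PHF19_KD and 20.4 to 23.3 CPM in shEV, and most of that sum was the lysosomal gene CD68, at 9.26, 26.6 and 20.6 CPM on average in the same order. Of the 2 myeloid markers tested, CD68 (0.37 ± 0.09) and the integrin gene ITGAM (2.14 ± 0.27) both rose in PHF19_KD relative to shEV, and both fell in KD_Rescued relative to PHF19_KD (-1.52 ± 0.10 and -2.07 ± 0.30). The 8 T and NK cell markers summed to 2.58 to 2.88 CPM in KD_Rescued, 1.86 to 2.32 CPM in PHF19_KD and 2.33 to 3.07 CPM in shEV. Of the 3 tested, CD3E was lower in PHF19_KD than in shEV (-1.30 ± 0.35) and higher in KD_Rescued than in PHF19_KD (1.84). Its counts were low, with means of 1.58 CPM in KD_Rescued, 0.435 CPM in PHF19_KD and 1.08 CPM in shEV. CD3E passed the filter on low counts mainly through KD_Rescued and shEV, so its calls are description only.

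The library with disagreeing labels resembled different groups for different members. CD40, at 33.9 CPM, lay within the PHF19_KD range. TNFRSF17, at 198 CPM, lay above KD_Rescued and below shEV, at 168% of the PHF19_KD mean. TNFRSF13B, at 88.1 CPM, lay between PHF19_KD and KD_Rescued, and TNFSF13, at 26.4 CPM, between shEV and PHF19_KD. CD27, at 1.10 CPM, lay within KD_Rescued and shEV and below PHF19_KD. CD70, at 37.1 CPM, was lower than in any other library. TNFRSF13C and TNFSF13B held 3 counts each there, or 0.296 CPM, which does not place them.

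Levels were compared between genes per kilobase of merged exons (GENCODE 29, used for lengths only). BCMA was the highest of the 8 genes per length in every group, at 171 CPM per kb in KD_Rescued, 106 in PHF19_KD and 222 in shEV. TNFRSF13B came next in KD_Rescued (30.0 CPM per kb) and in shEV (35.8), ahead of CD70 (26.7 in KD_Rescued and 31.9 in shEV). The shEV ranges of these 2 genes overlapped and the KD_Rescued ranges did not. Within each shEV library, TNFRSF13B was nevertheless above CD70. In PHF19_KD the order was the other way, with CD70 at 30.1 and TNFRSF13B at 15.3 CPM per kb, and no overlap. TNFSF13 and CD40 followed, at 7.32 and 5.11 CPM per kb in KD_Rescued, 13.4 and 12.9 in PHF19_KD, and 8.76 and 4.93 in shEV. Their PHF19_KD libraries overlapped, and dividing by the longest transcript instead put CD40 (18.8) ahead of TNFSF13 (13.9) in PHF19_KD only. CD27 was next, at 0.744 CPM per kb in KD_Rescued, 1.70 in PHF19_KD and 0.871 in shEV. TNFSF13B had 0.279 CPM per kb in KD_Rescued, 0.164 in PHF19_KD and 0.146 in shEV, and TNFRSF13C had 0.238, 0.0674 and 0.0923 CPM per kb in the same order of groups. The libraries of these last 2 genes overlapped in PHF19_KD and shEV.

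**Figure D3:**
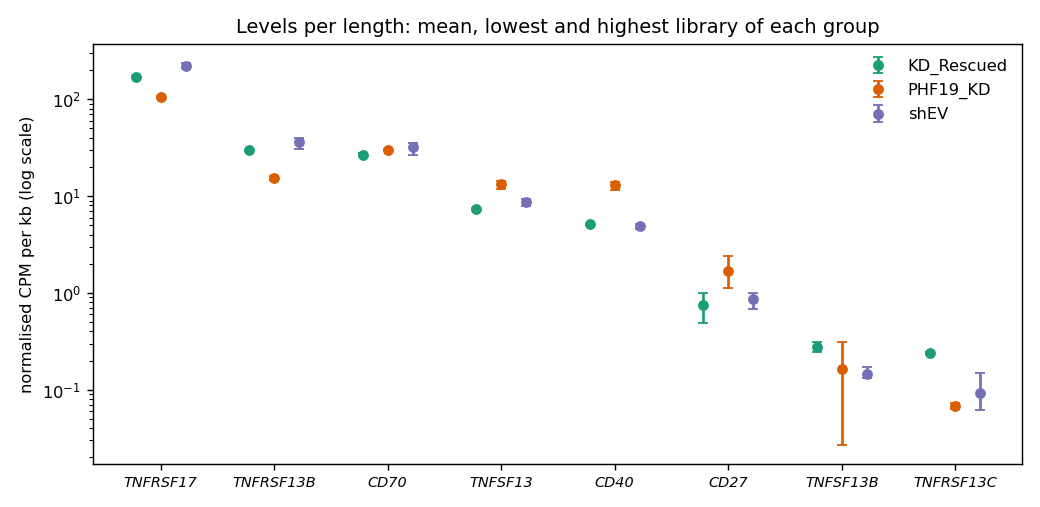
Normalised CPM per kilobase of merged exons (log scale) of the 8 genes in KD_Rescued, PHF19_KD and shEV. Points are means and bars span the lowest to the highest library; BCMA is highest in each group, at 171, 106 and 222 CPM per kb.

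The promoter windows of 4 of the 8 genes were found in RefSeq (GRCh38.p14), each 300 bases long, 250 before and 50 after the annotated start. These genes were TNFRSF13B, TNFSF13, TNFSF13B and CD27, and no window was found for TNFRSF17, TNFRSF13C, CD40 or CD70. Polycomb complexes are known for binding at regions rich in CG dinucleotides, so CG is printed in capitals. The windows of TNFRSF13B, which fell in PHF19_KD, and of TNFSF13, which rose, are shown 5′ to 3′ on the gene's strand. That of TNFRSF13B is chr17:16972069-16972368 (minus strand), and those of the upstream and downstream start of TNFSF13 are chr17:7558032-7558331 and chr17:7558500-7558799 (plus strand).
TNFRSF13B: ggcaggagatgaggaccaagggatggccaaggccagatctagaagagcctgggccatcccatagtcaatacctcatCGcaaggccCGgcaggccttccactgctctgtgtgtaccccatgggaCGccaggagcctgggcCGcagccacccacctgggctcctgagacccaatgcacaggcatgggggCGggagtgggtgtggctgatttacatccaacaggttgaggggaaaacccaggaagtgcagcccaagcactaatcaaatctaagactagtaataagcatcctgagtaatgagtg
TNFSF13 upstream start: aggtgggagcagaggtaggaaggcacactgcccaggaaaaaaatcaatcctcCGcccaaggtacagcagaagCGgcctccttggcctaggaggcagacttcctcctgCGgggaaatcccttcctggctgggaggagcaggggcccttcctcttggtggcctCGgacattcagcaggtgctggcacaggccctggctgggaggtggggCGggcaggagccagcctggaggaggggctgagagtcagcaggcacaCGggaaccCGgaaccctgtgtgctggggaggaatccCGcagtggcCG
TNFSF13 downstream start: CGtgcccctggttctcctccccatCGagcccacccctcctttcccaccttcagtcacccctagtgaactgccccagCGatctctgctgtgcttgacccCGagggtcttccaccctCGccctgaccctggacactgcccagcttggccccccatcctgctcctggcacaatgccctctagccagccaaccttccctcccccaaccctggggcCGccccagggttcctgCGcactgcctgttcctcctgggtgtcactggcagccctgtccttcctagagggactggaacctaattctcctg
TNFRSF13B had 5 CG in its window, and TNFSF13 had 9 and 7 in its windows, while the median over 34796 promoter windows of this length was 14. The windows not shown held 3 CG for CD27, and 0 and 1 CG for TNFSF13B. Both strands were searched for the NF-kB decamer consensus and for the E box CACGTG. The decamer consensus matched at 1 place in the upstream window of TNFSF13 and in neither other window shown; 11.3% of all windows held a match. The E box occurred in none of the windows shown, and in 7.20% of all windows. A match describes the letters only.

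The genes whose profile over the 8 libraries was nearest to a member were found by the root mean square distance of centred log2 CPM, among 12416 genes with a mean log2 CPM of at least 1. Nearest to TNFRSF17 were DCLRE1C, a DNA repair nuclease (distance 0.03), the mitochondrial chaperonin HSPD1 (0.03) and the kinesin KIF2A (0.04). Of these, DCLRE1C and HSPD1 had divided reads. KIF2A, for example, averaged 71.2 CPM (KD_Rescued), 42.7 CPM (PHF19_KD) and 89.1 CPM (shEV). Nearest to TNFRSF13B were the transcription factor FOXA1, the respiratory complex I subunit NDUFA12 and the AP-1 subunit FOSL2 (0.08 each). CD40 was nearest to the uncharacterised RP11-140K17.3 (0.05, with divided reads in 7 libraries), C10orf10 (0.06) and C19orf38 (0.07). C10orf10 averaged 16.6 CPM in KD_Rescued, 41.4 CPM in PHF19_KD and 15.6 CPM in shEV.

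TNFSF13 was nearest to SUFU, an inhibitor of Hedgehog signalling (0.05), and to the ribosomal protein gene RPLP2 (0.06), which had divided reads in 9 libraries. CD70 was nearest to CHID1 (0.03), PRKCSH, a glucosidase subunit of the endoplasmic reticulum (0.04), and the lysosomal channel MCOLN1 (0.05). Reads were divided in 5 libraries for PRKCSH and MCOLN1, and in 1 for CHID1. The 3 members with few counts had no near neighbour. Their smallest distances were 0.17 for CD27 (SMG1P4), 0.18 for TNFRSF13C (TMSB4XP6) and 0.33 for TNFSF13B (RN7SL1), all genes with divided reads.

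Further lists of the pathway are described by their counts, beside the shares of all genes given above, and by their medians, beside the medians of all genes tested. Those were 0.03 in PHF19_KD relative to shEV, 0.03 in KD_Rescued relative to PHF19_KD and 0.02 in KD_Rescued relative to shEV. The wider TNF receptor family moved in both directions. Of 24 other receptors, 13 were tested, and 7 rose and 5 fell in PHF19_KD relative to shEV, with a median log2 fold change of 1.00 against 0.03 for all genes tested. The TRAIL receptor gene TNFRSF10B averaged 88.9 ± 0.242 CPM in PHF19_KD and 42.7 ± 1.74 CPM in shEV, and the TRAIL decoy receptor gene TNFRSF10D 27.7 ± 1.03 CPM in PHF19_KD and 6.77 ± 0.473 CPM in shEV (SD, n = 3 each). Both rose, by 1.06 ± 0.05 and 2.03 ± 0.09 on the log2 scale (SE). The death receptor gene FAS fell by 0.87 ± 0.09, and TNFRSF1A, which encodes a TNF receptor, fell by 0.72 ± 0.07. TNFRSF4, TNFRSF6B and TNFRSF18 were at 0 in all 9 libraries. Some of the 13 passed the filter on low counts only through the groups where they were high, and their calls are description only.

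Relative to PHF19_KD, 6 of the 13 rose and 7 fell in KD_Rescued, with a median of -0.59 against 0.03 for all genes tested. TNFRSF10B (-1.16 ± 0.06) and TNFRSF10D (-1.49 ± 0.09) fell, and TNFRSF1A (0.75 ± 0.07) rose. Relative to shEV, 3 rose and 3 fell in KD_Rescued, with a median of 0.03 (-0.01 with RLE scaling) against 0.02 for all genes. There TNFRSF10D was higher (0.54 ± 0.10), as did TNFRSF14, the receptor HVEM (0.82 ± 0.09), and FAS was lower (-0.60 ± 0.09). TNFRSF10B and TNFRSF14 had divided reads in 5 and 9 libraries.

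Of 15 other TNF ligands, 7 were tested, and 2 rose and 2 fell in PHF19_KD relative to shEV (median 0.61). TNFSF10, which encodes TRAIL, rose by 0.94 ± 0.14 (SE) and TNFSF9, the 4-1BB ligand, by 0.61 ± 0.11. EDA (ectodysplasin) fell by 0.29 ± 0.10, which was not called with upper-quartile scaling (-0.13), and TNFSF15 fell too, at a mean below 1 CPM in every group. TNFSF15 passed the filter on low counts only through shEV and KD_Rescued. Its calls as lower in PHF19_KD than in either are therefore description only. KD_Rescued had 2 rises and 3 falls relative to PHF19_KD (median -0.40), with TNFSF10 (-0.78 ± 0.15) and TNFSF9 (-1.15 ± 0.12) among the falls. Between KD_Rescued and shEV only TNFSF9 was called, and it was lower (-0.54 ± 0.12, median of the list 0.16).

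Of the partners of these receptors and ligands, 2 of 5 were tested. SDC1, a proteoglycan that binds APRIL, averaged 677 ± 10.3 CPM in KD_Rescued, 1024 ± 35.3 CPM in PHF19_KD and 676 ± 60.6 CPM in shEV (SD over 2, 3 and 3 libraries). CAMLG, the calcium modulator that binds TACI, averaged 37.5 ± 0.620 CPM in KD_Rescued, 73.8 ± 3.29 CPM in PHF19_KD and 37.6 ± 1.85 CPM in shEV. Both rose in PHF19_KD relative to shEV (0.60 ± 0.06 and 0.97 ± 0.06) and fell in KD_Rescued relative to PHF19_KD. Neither was called between KD_Rescued and shEV (adjusted p = 0.993 for SDC1 and 0.979 for CAMLG).

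BCMA is shed from the cell surface by gamma-secretase, TACI by ADAM10, and APRIL is cut by furin. Of 9 genes, namely those of these proteases and the related ADAM17, 5 rose and 1 fell in PHF19_KD relative to shEV (median 0.35). APH1B averaged 4.38 ± 1.22 CPM in PHF19_KD and 0.850 ± 0.228 CPM in shEV (log2 fold change 2.33 ± 0.28), and PSEN2, which encodes a catalytic presenilin, 71.2 ± 1.65 CPM in PHF19_KD and 39.7 ± 1.06 CPM in shEV (0.84 ± 0.05). APH1A, the paralog of APH1B, fell by 0.44 ± 0.05, with divided reads in all 9 libraries. KD_Rescued had 1 rise and 7 falls relative to PHF19_KD (median -0.31), including FURIN (-1.23 ± 0.11) and PSEN2 (-0.95 ± 0.06). Relative to shEV it had 1 rise and 4 falls (median -0.11), FURIN (-0.80 ± 0.11) and ADAM10 (-0.39 ± 0.05) among them.

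Downstream of the receptors, 12 genes of TRAF adaptors, cIAP ligases and NF-kB kinases were tested. In PHF19_KD relative to shEV, 7 rose and 1 fell (median 0.20). TRAF1, an adaptor that is itself an NF-kB target, averaged 47.4 ± 5.10 CPM in PHF19_KD and 5.46 ± 0.640 CPM in shEV (log2 fold change 3.11 ± 0.11). BIRC3, a cIAP ligase with divided reads in 8 libraries, averaged 219 ± 8.52 CPM in PHF19_KD and 87.2 ± 6.87 CPM in shEV (1.33 ± 0.06). CHUK, the kinase IKK alpha, fell by 0.93 ± 0.07. Relative to PHF19_KD, 5 rose and 2 fell in KD_Rescued (median 0.14), and the falls were TRAF1 (-0.90 ± 0.10) and BIRC3 (-1.37 ± 0.07). With upper-quartile scaling 3 rose and 5 fell there (median -0.01). TRAF1 still averaged 25.3 ± 1.42 CPM in KD_Rescued (SD, n = 2), 2.20 ± 0.12 above shEV on the log2 scale, where 6 of the list were higher and 1 lower (median 0.25).

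Of the 5 NF-kB subunit genes, 3 rose in PHF19_KD relative to shEV (median 0.26), REL (0.60 ± 0.13) and RELB (0.53 ± 0.09) among them. KD_Rescued had 1 rise and 3 falls relative to PHF19_KD (median -0.41), with NFKB1 higher (0.26 ± 0.05, not called with upper-quartile scaling at 0.10) and NFKB2 lower (-0.47 ± 0.07). Relative to shEV, NFKB1 was higher (0.15 ± 0.05, not called with RLE scaling at 0.10) and NFKB2 lower (-0.21 ± 0.07) in KD_Rescued, and the median was -0.01. Of 11 genes used as an index of NF-kB activity in myeloma, 3 of which are in the lists above, 7 rose and 2 fell in PHF19_KD relative to shEV (median 0.38). CD74, the invariant chain of MHC class II, rose by 0.90 ± 0.04, while the deubiquitinase gene TNFAIP3 fell by 0.24 ± 0.05 (-0.08 and not called with upper-quartile scaling) and MALT1 by 0.44 ± 0.05. The index had 3 rises and 7 falls in KD_Rescued relative to PHF19_KD (median -0.41), and 3 rises and 4 falls relative to shEV (median -0.04).

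**Figure D4:**
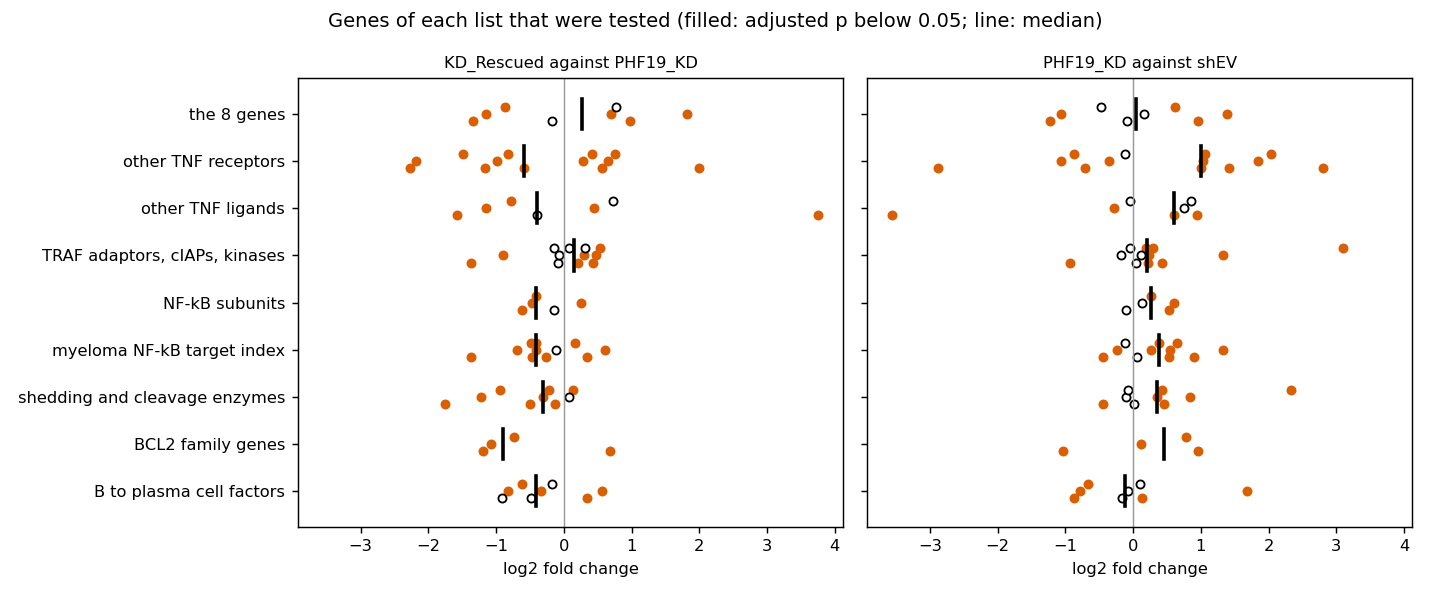
Log2 fold changes of the tested genes of each list (points, filled where the adjusted p was below 0.05) and the list median (line), for KD_Rescued against PHF19_KD and PHF19_KD against shEV. The medians of the other TNF receptors are -0.59 and 1.00, and single genes of most lists lie on both sides of 0.

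Of 5 BCL2 family genes, which act for or against survival below these receptors, 4 were tested. In PHF19_KD relative to shEV, 3 rose, a proapoptotic gene among them, and 1 fell (median 0.45). With RLE scaling 2 rose and 1 fell (median 0.44), and the proapoptotic gene was not called. MCL1, a survival factor known to depend on BCMA in mouse plasma cells, averaged 734 ± 7.26 CPM in PHF19_KD and 379 ± 15.9 CPM in shEV (log2 fold change 0.95 ± 0.04), and BCL2 rose by 0.79 ± 0.05. BCL2L1, with divided reads in 8 libraries, averaged 156 ± 2.01 CPM in PHF19_KD and 320 ± 13.0 CPM in shEV (-1.04 ± 0.04). In KD_Rescued relative to PHF19_KD, 1 rose and 3 fell (median -0.91), with BCL2L1 higher (0.68 ± 0.05) and MCL1 lower (-1.07 ± 0.05). Relative to shEV, 3 fell in KD_Rescued (median -0.38), BCL2 (-0.40 ± 0.05) and the proapoptotic BCL2L11 (-0.62 ± 0.05) among them.

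Transcription factors of the passage from B cell to plasma cell were mixed. Of 10, 8 were tested, and 2 rose and 3 fell in PHF19_KD relative to shEV (median -0.12, or 0.04 with upper-quartile scaling). IRF4, a factor on which myeloma cells depend, averaged 394 ± 8.93 CPM in PHF19_KD and 675 ± 7.67 CPM in shEV (log2 fold change -0.78 ± 0.04), and the coactivator POU2AF1 fell by 0.66 ± 0.04. BCL6, a factor of germinal centre B cells, rose by 1.68 ± 0.39 at a level of 2.01 ± 0.141 CPM in PHF19_KD, and XBP1 rose by 0.14 ± 0.05. In KD_Rescued relative to PHF19_KD, 2 rose and 3 fell (median -0.42), with IRF4 (0.56 ± 0.04) and POU2AF1 (0.34 ± 0.04) higher. Relative to shEV, 7 of the 8 fell in KD_Rescued (median -0.38), PRDM1 (-0.42 ± 0.04) and XBP1 (-0.48 ± 0.05) with the lowest adjusted p.

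Among the 8 plasma cell markers, of which IRF4, PRDM1 and XBP1 are also in the list of transcription factors, there were 3 rises and 3 falls in PHF19_KD relative to shEV (median -0.06, or 0.10 with upper-quartile scaling). CD38, a surface enzyme and antibody target in myeloma, rose by 1.16 ± 0.04 and SDC1 by 0.60 ± 0.06, while IGJ, the joining chain of secreted antibodies, fell by 1.25 ± 0.05. In KD_Rescued relative to PHF19_KD, 4 rose and 4 fell (median -0.07), and relative to shEV 2 rose and 5 fell (median -0.23). Of the 8 B cell stage markers, 4 were tested. CD79B, of the B cell receptor, and CR2, a complement receptor, were the 2 that rose in PHF19_KD relative to shEV, as given above (median 0.53). In KD_Rescued relative to PHF19_KD, 1 rose and 2 fell (median -0.60), and relative to shEV CIITA alone was called, higher by 0.47 ± 0.07 (median 0.06). Reads were divided in 3 to 9 libraries for ADAM10, CD38, CD68, CIITA, IGJ, MALT1, NFKB2, REL, TNFAIP3, TNFSF15 and XBP1, whose levels are uncertain to that extent.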

How the data were processed

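TruSeq libraries were prepared from 1 ug of total RNA, per the labels. The authors deposited their data as estimated counts per gene with no scaling across libraries. The submitters' processing notes list CASAVA, RSEM and hg19 with no roles. The table is named after salmon, which leaves the counting program unsettled. For annotation, filters and strand the setting is not given in the sources used here.

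Estimated counts were rounded and tested with edgeR 4.0.16 (R 4.3.3): filterByExpr, TMM scaling and the robust quasi-likelihood test. The 8 libraries with undisputed labels entered 1 fit with group means, in which the spread was estimated over all groups together. P-values were adjusted over 16600 genes by Benjamini-Hochberg. SE is the absolute log2 fold change over the square root of F, and 95% intervals use the t distribution that gives the same p. All replicates differed by more than counting noise (chi-square per degree of freedom 1.37 to 9.15). The highest values, 8.14 and 9.15, were those of shEV replicate 3 against shEV replicates 1 and 2. Every other pair was at 2.25 or below. In simulated counts for PHF19_KD against shEV the test was checked before use. DESeq2 1.42.0, limma 3.58.1 (voom) and 17 other settings were alternatives.

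PHF19 and all members are named. Of each other list at most 4 genes per comparison could be named, ranked by adjusted p, 2 rises and 2 falls, and without any call the 2 of highest mean CPM. Nearest genes are the 3 with the smallest profile distance for each member. The text gives a part of these, and some are not reported here. The members and gene lists were chosen with earlier results of these data known.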

Additional observations from a re-analysis of the deposited data

Results flagged for a closer look

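The library whose title and shRNA label disagree was used in no comparison, and 2 members stood above every shEV library in it. TNFRSF17, TNFRSF13B, TNFSF13B and CD70 stood below every shEV library. The share of all genes outside the shEV range in this library was not computed, so these positions set no member apart. CD40 was at 33.9 CPM there, against 11.6 to 13.1 CPM in shEV, and within the 28.9 to 35.7 CPM of PHF19_KD. TNFSF13 was at 26.4 CPM there, against 18.1 to 21.2 CPM in shEV and 27.1 to 32.6 CPM in PHF19_KD. PHF19 was at 63.6 CPM in the same library, between the ranges of PHF19_KD and shEV. With a single library there is no test of these values.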

How the results depend on the processing

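The counts of calls, PHF19 and the 8 members were recomputed under 19 alternatives, 8 of which left out 1 library each, and no called value of these reversed. Members called between PHF19_KD and shEV stayed between 4 and 6 (5 in the report), and between KD_Rescued and PHF19_KD between 4 and 7 (6 in the report). Between KD_Rescued and shEV the count was 3 in the report, 5 with RLE scaling, 5 without a filter, 5 without mitochondrially encoded genes, 1 when the library whose labels disagree was put in PHF19_KD, and 1 to 4 when 1 library was left out. Genes called between KD_Rescued and shEV numbered 6599 in the report, 4047 with that library as PHF19_KD, 2464 with it as KD_Rescued, and 4048 to 7539 when 1 library was left out. Genes called between KD_Rescued and PHF19_KD numbered 10526 in the report and 6207 with it as KD_Rescued. PHF19 between KD_Rescued and shEV, called at 0.91 on the log2 scale, missed the threshold with it as PHF19_KD (0.86, adjusted p = 0.105) or as KD_Rescued (0.49, adjusted p = 0.38). The cause of these changes was not tested. Same-numbered libraries did not deviate together (correlations of deviations -0.01 to 0.03), so the numbers are not taken as pairs. With the replicate block 11537, 10341 and 6387 genes were called between PHF19_KD and shEV, KD_Rescued and PHF19_KD, and KD_Rescued and shEV, against 11476, 10526 and 6599 without it. Among the members the block changed the calls of CD70 and TNFRSF13C given above and no others. Upper-quartile scaling moved the median of all genes between PHF19_KD and shEV to 0.19, against 0.03, and the share of calls that were higher to 60.6%, against 50.5%. Between KD_Rescued and PHF19_KD it moved them to -0.12, against 0.03, and to 42.1%, against 53.4%. TNFRSF13C and TNFSF13B had no value under settings in which they were not tested, such as a filter at 1 CPM in 2 libraries. Their low counts limit what can be said of them.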
